A study of Caenorhabditis elegans with 2 samples.

Results

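The peaks described here are 411 binding sites of RPC-1, which is RNA polymerase III's largest subunit. They lay outside protein-coding genes and away from protein-coding promoters and the small RNA classes named below. Annotated genes of other classes were allowed, and 57 of the 411 (13.9%) had the summit inside one. The 411 were taken from the 1840 nuclear peaks (22.3%) of the 1860 peaks in the IDR list. The IDR list is the authors' thresholded list, derived from both replicates and meant to hold peaks whose ranks repeat. Membership alone did not show that ranks repeated between the samples. A summit within 250 bp and among the first 1860 ranks was found in both replicate lists for 1159 nuclear peaks (63.0%). A peak was kept when its summit lay in no protein-coding gene span and not between 500 bp upstream and 250 bp downstream of a protein-coding 5′ end. It also had to lie at least 500 bp from any tRNA, tRNA pseudogene, rRNA, snRNA, RNase P, RNase MRP, Y or signal recognition particle RNA gene, and more than 250 bp from any snoRNA or miRNA gene. The other nuclear peaks were 693 near those RNA genes, 406 at promoters and 330 in gene spans. The rule used positions and membership of the IDR list, and no signal value beyond that.

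RPC-1 carried GFP and FLAG at its C-terminus in a stable transgenic line of Caenorhabditis elegans, and was precipitated from whole hermaphrodite young adults with an antibody against GFP. The strain was JK1107, so both samples carried glp-1(q224), a temperature-sensitive allele on chromosome III of a Notch receptor gene needed for germline proliferation. The growth temperature is not given in the labels. There was 1 group, with 2 biological replicates numbered 1 (sheared in a Bioruptor) and 3 (sheared with a microtip), so the shearing and the replicate cannot be told apart. With no second group there is no contrast to test, and the values below are descriptions. Read depth is unknown, because the lists hold no counts. Whole animals mix all tissues, so a weak peak in all cells and a strong peak in a few cannot be told apart.

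RNA polymerase III makes short RNAs such as tRNAs, 5S rRNA and U6 snRNA. At tRNA genes its factors recognise 2 elements inside the gene, the A box near the start and the B box downstream of it, and the polymerase follows. At U6 genes and related ones the elements lie upstream of the start, with a TATA-like sequence among them. Copies of such genes, complete or decayed, are spread through animal genomes, and some keep the internal elements without encoding a known RNA.

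The sequences of the strongest peaks are shown first, so that their letters can be set beside these elements. All are from the ce11 build (WBcel235, RefSeq), 151 bases centred on the summit, 5′ to 3′. The strongest member and the eighth strongest lay 429 bp apart in the interval between F08G2.5 and ins-37, an insulin-like gene. Each had its summit inside a short annotated ncRNA on the minus strand, F08G2.13 (chrII:13834449-13834523) and F08G2.12 (chrII:13834887-13834954). Capitals mark runs of 8 or more letters that both windows share.
chrII:13834422-13834572, minus strand, at F08G2.13, IDR signal 8644: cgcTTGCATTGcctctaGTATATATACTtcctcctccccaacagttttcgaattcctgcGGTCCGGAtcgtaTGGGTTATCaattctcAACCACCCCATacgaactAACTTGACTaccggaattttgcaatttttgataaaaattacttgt
chrII:13834851-13835001, minus strand, at F08G2.12, IDR signal 4647: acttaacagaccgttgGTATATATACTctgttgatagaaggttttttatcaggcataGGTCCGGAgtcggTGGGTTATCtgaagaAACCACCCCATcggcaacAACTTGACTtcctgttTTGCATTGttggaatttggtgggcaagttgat
The windows shared 6 runs, 56 of the 151 letters in the first. All but 1 of them kept their order. GTATATATACT lay upstream of the annotated start in both, from base -32 to -22 of F08G2.13 and from -31 to -21 of F08G2.12, counted back from the start. GGTCCGGA lay at bases 11 to 18 and TGGGTTATC at 24 to 32 of both RNAs. AACCACCCCAT and AACTTGACT followed at bases 40 to 50 and 58 to 66 of F08G2.13, and 1 base earlier in F08G2.12. The other run, TTGCATTG, lay upstream of the first gene and downstream of the second. AACCACCCCAT was found within 250 bp of 2 of the 411 summits, the pair it was taken from, and of 2 of 30103 windows placed every 1000 bp in the space that satisfies the same position limits. TTGCATTG was the most frequent of the runs, in 9 members and 642 of those windows.

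The next set has strong single members and a repeat pair. Here capitals mark the A-box core GGCNNAGTG, the B-box core GTTCGANNC or its variants GTTCAANNC and ATTCGANNC, on either strand, in the first 3 sequences. In the last pair capitals mark runs of 8 or more letters that both share.
chrII:14496998-14497148, plus strand, between cysl-2 and dhs-8, IDR signal 6194: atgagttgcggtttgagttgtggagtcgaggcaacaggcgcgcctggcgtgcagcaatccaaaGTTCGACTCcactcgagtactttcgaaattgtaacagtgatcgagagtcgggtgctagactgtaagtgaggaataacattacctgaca
chrX:1837804-1837954, minus strand, between C14E2.6 and T26C11.4, IDR signal 6180: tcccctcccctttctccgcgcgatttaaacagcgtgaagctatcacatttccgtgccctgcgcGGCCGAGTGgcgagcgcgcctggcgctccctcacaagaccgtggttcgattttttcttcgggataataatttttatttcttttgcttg
chrIV:8375469-8375619, plus strand, between aagr-1 and D2096.7, IDR signal 5332: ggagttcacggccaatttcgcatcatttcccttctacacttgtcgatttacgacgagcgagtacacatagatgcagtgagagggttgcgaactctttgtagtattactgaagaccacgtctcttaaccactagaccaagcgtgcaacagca
chrX:14211280-14211430, minus strand, between ceh-37 and kola-4, IDR signal 5233: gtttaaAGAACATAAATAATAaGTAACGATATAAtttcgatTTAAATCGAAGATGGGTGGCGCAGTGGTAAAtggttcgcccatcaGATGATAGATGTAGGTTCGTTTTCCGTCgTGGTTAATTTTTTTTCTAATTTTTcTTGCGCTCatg
chrX:8577962-8578112, plus strand, between jmjd-3.1 and F18E9.8, IDR signal 4037: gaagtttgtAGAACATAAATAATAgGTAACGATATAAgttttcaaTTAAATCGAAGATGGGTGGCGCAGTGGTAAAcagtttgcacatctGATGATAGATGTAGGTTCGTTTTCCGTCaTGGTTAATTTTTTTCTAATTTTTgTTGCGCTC
The first held a B-box core, the second an A-box core, and the third no exact match to these cores or variants within 75 bp of the summit. An exact search misses elements that differ by a letter. In the third, gttgcgaac read on the other strand is a letter off the B-box core, so the lack of a match does not mean that it holds neither element. The pair lay 5633318 bp apart on X and shared 118 of 151 letters in runs of up to 31. The shared runs include a match to the A-box core.

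The next set shows the commonest resemblance among the members, to Y94H6A.t1, an annotated tRNA pseudogene of 73 bases. Its own sequence comes first, then 7 copies of high signal under members, then a copy with no summit. Capitals mark the A-box core and the B-box core or a variant on the strand shown.
chrIV:2740214-2740286, plus strand, Y94H6A.t1: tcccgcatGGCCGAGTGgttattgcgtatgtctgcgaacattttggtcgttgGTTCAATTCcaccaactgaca
chrIV:4949925-4949997, plus strand, IDR signal 3694: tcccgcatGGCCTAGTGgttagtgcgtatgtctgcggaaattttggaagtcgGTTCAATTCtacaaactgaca
chrIV:8412675-8412746, minus strand, IDR signal 3663: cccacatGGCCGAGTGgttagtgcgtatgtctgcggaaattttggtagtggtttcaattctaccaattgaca
chrX:351551-351623, minus strand, IDR signal 2983: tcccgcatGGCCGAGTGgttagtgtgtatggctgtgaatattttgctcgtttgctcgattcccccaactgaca
chrIII:1354716-1354789, plus strand, IDR signal 2437: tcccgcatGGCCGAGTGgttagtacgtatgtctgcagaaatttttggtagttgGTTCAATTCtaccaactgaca
chrX:30346-30416, minus strand, IDR signal 2427: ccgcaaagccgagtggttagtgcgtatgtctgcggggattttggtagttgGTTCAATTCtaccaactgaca
chrX:10299054-10299124, minus strand, IDR signal 2408: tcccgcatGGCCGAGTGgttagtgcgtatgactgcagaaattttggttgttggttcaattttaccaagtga
chrIV:16818682-16818749, minus strand, IDR signal 2391: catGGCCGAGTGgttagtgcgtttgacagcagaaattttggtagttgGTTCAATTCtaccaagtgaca
chrV:1833327-1833399, plus strand, no IDR summit: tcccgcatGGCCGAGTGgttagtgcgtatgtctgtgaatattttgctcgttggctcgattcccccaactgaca
The copies were 85.3 to 90.5% identical to Y94H6A.t1. The A-box core was intact in 6 of the 7 bound copies and the B-box core or a variant in 4. The copy with no summit, 90.4% identical, held the A-box core and occurred 2 times letter for letter in the genome, whereas each of the 7 bound ones occurred once. This copy does not stand for all copies without a summit. Over the genome, 12 of the 15 without an IDR summit held the A-box core and 9 the B-box core or a variant. Of the 53 copies with an IDR summit, 43 and 39 did.

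Further kinds of member are shown for contrast. One window aligned to the tRNA pseudogene K10B2.t1, with a B-box variant in capitals. The others held the word GACGCAGA (in capitals on either strand, together with AGAGAGAG), which recurred in members without any tRNA-like segment.
chrII:5353802-5353952, minus strand, between F09E5.7 and srg-69, IDR signal 4014: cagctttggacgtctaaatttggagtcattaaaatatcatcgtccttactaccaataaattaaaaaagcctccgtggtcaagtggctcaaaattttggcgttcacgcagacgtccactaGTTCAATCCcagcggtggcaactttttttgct
chrII:12102521-12102671, plus strand, between Y17G7B.17 and Y17G7B.18, IDR signal 447.1: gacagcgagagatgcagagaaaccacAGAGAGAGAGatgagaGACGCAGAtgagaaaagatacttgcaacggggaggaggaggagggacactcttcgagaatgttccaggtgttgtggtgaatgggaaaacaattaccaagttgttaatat
chrIII:7155806-7155956, plus strand, between ogt-1 and nuo-4, IDR signal 145.9: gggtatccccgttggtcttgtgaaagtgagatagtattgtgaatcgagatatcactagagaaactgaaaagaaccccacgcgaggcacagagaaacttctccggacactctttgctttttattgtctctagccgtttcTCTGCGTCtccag

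The members were mostly weak peaks with a small strong tail. Their IDR signal, the authors' own value per peak, ran from 54.3 to 8644 with a median of 105.7 and quartiles of 71.17 and 331.8. Peaks near small RNA genes had a median of 2587, promoter peaks 84.84 and gene-span peaks 86.12. Of the 411 members, 56 (13.6%) had a signal of at least 1000. The share was 2.96% in promoter peaks and 77.9% in peaks near small RNA genes. Gene-span peaks had a strong tail as well, with 33 of 330 reaching 1000. Members took 6 of the 100 highest places in the IDR list. The 3 weakest lay between W07G1.1 and sre-44 (54.59), F54F12.1 and Y39E4B.6 (54.44), and Y15E3A.5 and nfki-1 (54.30).

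**Figure D1:**
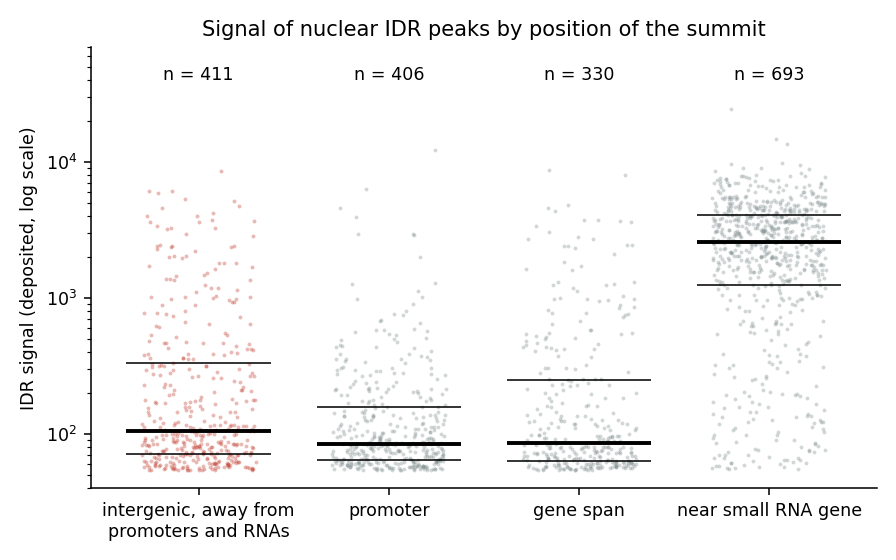
IDR signal (log scale) of each nuclear IDR peak, by where its summit lay; points are peaks, the thick line is the median and the thin lines are the quartiles. The 411 intergenic peaks have a median of 105.7, close to promoter and gene-span peaks (84.84 and 86.12) and far under peaks near small RNA genes (2587), with 56 reaching 1000.

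The position limits left 30142316 of 100272607 nuclear bases, 30.1%, open to a member. The share of nuclear IDR peaks in that space, 22.3%, was lower than its share of bases. The much longer pooled list had 22.0% of its nuclear peaks there, and the lists of replicates 1 and 3 had 21.9% and 24.1%. For 373 members the whole peak interval, and not the summit alone, was clear of gene spans, promoters and RNA margins. At the promoter limit, 19 members within 100 bp inside it had a median signal of 115.4 and 27 peaks within 100 bp outside it had 67.95. At the RNA limit the corresponding medians were 301.6 for 3 members and 90.23 for 4 peaks outside.

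The replicates placed the strong members alike and the weak ones less so. The IDR signal that sorts them is derived from both samples, so a high signal itself favours a high rank in each list. The likeness of the strong members is thus no independent check. A summit within 250 bp was present in both replicate lists for 362 members (88.1%), in replicate 1 alone for 40 and in replicate 3 alone for 9. Over all nuclear IDR peaks the share in both was 90.9%. All 56 members with a signal of at least 1000 were in both lists, against 82 in group 4, where groups 1 (highest) to 4 (lowest) divide the members into equal numbers by signal. Within the first 1860 ranks, the length of the IDR list, 348 members were found in replicate 1, 238 in replicate 3 and 207 (50.4%) in both. The same share over all nuclear IDR peaks was 63.0%.

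The strongest members kept their places in both lists, whose signal scales differ. The member at F08G2.13 had a signal of 6810 (rank 13) in replicate 1 and 1818 (rank 7) in replicate 3, and that at F08G2.12 had 3785 (rank 142) and 888.8 (rank 157). The member between cysl-2, a cysteine synthase-like gene, and dhs-8, a dehydrogenase gene, had 5114 (rank 54) and 1167 (rank 60). That between C14E2.6 and T26C11.4, inside the pseudogene T26C11.3, had 4863 (rank 69) and 1357 (rank 33). In all 4 the ranks of both replicates were under 200. Beside aagr-1 the signals were 4517 (rank 83) and 855.1 (rank 172), and beside ceh-37 they were 3928 (rank 130) and 1308 (rank 38). Beside jmjd-3.1 they were 3032 (rank 238) and 1019 (rank 103). The ceh-37 and jmjd-3.1 members thus ranked higher in replicate 3, and the aagr-1 member in replicate 1.

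One block of X stood apart between the replicates. From 11014367 to 11024201 (9835 bp), from the 3′ end of F58A3.3 across egl-15, a fibroblast growth factor receptor gene, into the interval before ldb-1, a LIM-domain binding protein gene, lay 22 IDR summits, 5 of them members. The list of replicate 3 had 20 summits there, ranked 61 to 840. That of replicate 1 had 5, ranked 6523 to 24965, so the block stands on replicate 3. The 5 members had IDR signals of 980.8, 930.2, 893.2, 624.4 and 257.0. The first 3 had no summit in replicate 1. No member of the block held the B-box core or aligned to an RNA gene. Without the block there were 406 members, with a median signal of 104.9. Outside the block, other members also had no summit in replicate 1. The best ranked of them in replicate 3 were those at II 14804848, in the interval from W01D2.3 to srt-11 (rank 626), at V 15390779 (1008) and at I 6265189 (1076). Conversely, the peak at IV 17278009 between clec-196 and hsp-1, a heat shock cognate gene, ranked 929 in replicate 1 and 19748 in replicate 3.

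**Figure D2:**
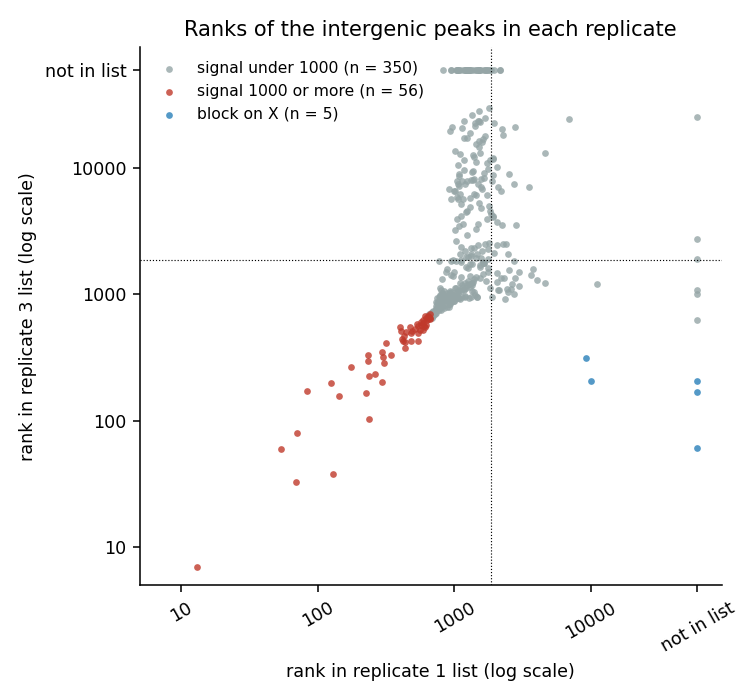
Rank of each intergenic peak in the replicate 1 list (x) and the replicate 3 list (y), both on log scales, with peaks absent from a list at its end; dotted lines mark rank 1860. The 56 peaks with a signal of 1000 or more lie on the diagonal, weaker peaks spread upwards to low ranks in replicate 3, and the 5 peaks of the block on X rank high in replicate 3 only.

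Members were denser on X than on any autosome. X held 141 members (34.3%; 95% Clopper-Pearson interval 29.7 to 39.1%, which covers counting error over peaks only), although it held 22.3% of the space within the limits. That was 21 members per Mb of this space, against 11.5 on the autosomes together and 8.92 (V) to 16.5 (III) on single autosomes. Without the block on X the density there was 20.3. A denser X was also found for the nuclear IDR peaks as a whole, of which 523 (28.4%) lay on X, or 29.5 per Mb of chromosome against 16 on the autosomes. For the members alone these values were 7.96 and 3.27 per Mb of chromosome, and for the other nuclear IDR peaks 21.6 and 12.7. Of the members with a signal of at least 1000, 21 lay on X (3.13 per Mb) and 35 on autosomes (1.49 per Mb). Peaks of the long pooled list in the same space were also denser on X, 247 against 211 per Mb, and I and III had more, 274 and 271. Depth on each chromosome is not given by the lists, and its part in the density was not tested.

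Along the chromosomes, each chromosome was divided into a left, a middle and a right part of equal length. Members were sparser in the middle than in both outer parts on every chromosome other than III. On X the left, middle and right parts held 46, 27 and 68 members, which are 20.4, 13.2 and 28.3 per Mb of space. On the autosomes together the values were 13.9, 9.17 and 11.3. The left part of III, with 31 members and 26.9 per Mb, was nearly as dense as the right part of X, whereas its right part had 10 members and 9.15 per Mb. Members in the right part of X were weak, with a median signal of 94.59 against 172.8 and 197.1 in its left and middle parts.

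**Figure D3:**
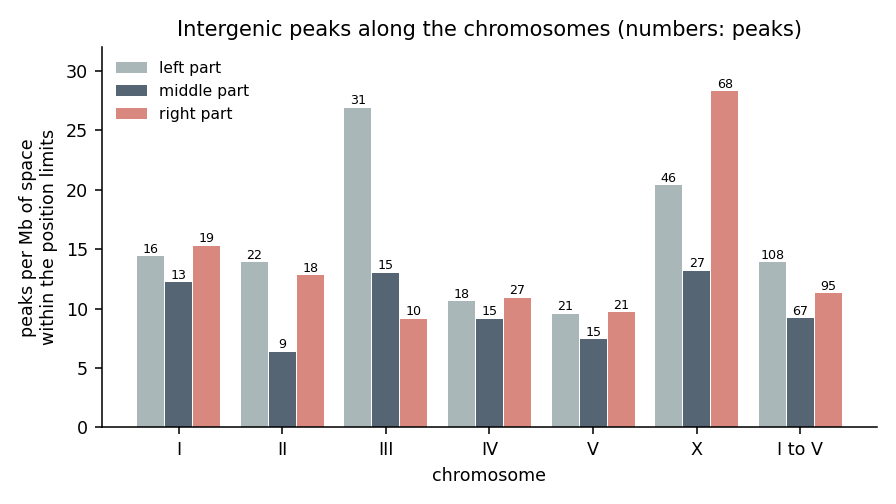
Intergenic peaks per Mb of space that satisfies the position limits, for the left, middle and right part (equal lengths) of each chromosome and of the autosomes together; the number over a bar counts its peaks. The right part of X (68 peaks, 28.3 per Mb) and the left part of III (31 peaks, 26.9 per Mb) stand highest.

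The protein-coding genes beside the members were set against grid positions placed every 1000 bp in the same space. Of the members, 240 (58.4%) lay between genes in tandem, 108 (26.3%) between divergent genes and 62 (15.1%) between convergent ones. The grid gave 53.9%, 32.2% and 13.7%, and 1 member lay beyond the last gene of a chromosome. The nearest gene was a median of 1293 bp away, against 1516 bp on the grid, and the interval between both genes had a median length of 5802 bp, against 6826 bp. A gene end lay within 250 bp of 37 members (9.0%; grid 8.19%), all of them 3′ ends, since the rule bars 5′ ends at that distance. The member at IV 8375544 lay between the convergent 3′ ends of aagr-1, an acid alpha-glucosidase related gene, at 173 bp and D2096.7 at 178 bp.

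All but 1 of the 411 members, that at X 30400 beyond the outermost gene, lay in 360 intervals between genes. There were 701 distinct flanking genes, and 43 intervals held 2 or 3 members. The highest signals in a shared interval were 8644 and 4647 between F08G2.5 and ins-37, and 4259 and 2882 lay between gfrl-1 and Y69A2AR.1. Between ckr-2, a cholecystokinin receptor homologue, and dpy-1, a gene needed for body shape, 3 members followed each other at III 2030965, 2031389 and 2031949, with signals of 2367, 3634 and 3268. Their ranks were 438, 262 and 296 in replicate 1 and 416, 234 and 349 in replicate 3. Further along, at III 2032561 and 2032959, lay IDR summits near small RNA genes (3195 and 3685). Each of the 3 members aligned to a tRNA gene or tRNA pseudogene, over 58, 33 and 50 bp. In the interval from snt-6, a synaptotagmin gene, to C08G5.7, 3 members of 399.6, 320.0 and 85.25 did so as well. Another IDR summit lay within 1000 bp of 66 members (16.1%), and the median distance to the next summit was 11129 bp.

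The families of the flanking genes were counted by symbol stem. Collagen and cuticle shape genes, found by the stems col-, dpy-, sqt- and rol-, flanked 12 members (2.92%) and 1.44% of grid positions. The stem dpy- also takes in genes that are no collagens, such as dpy-21, a dosage compensation gene. Of the 12 members, 3 lay in the single interval between ckr-2 and dpy-1. The count is thus not one of collagen genes alone. Nuclear hormone receptors flanked 17 members (4.14%; grid 3.38%), F-box genes 12 (2.92%; 2.45%) and C-type lectins 5 (1.22%; 1.37%). Chemoreceptor genes flanked 20 members (4.87%), less than on the grid (8.06%). Heat shock genes, hsp-1 and hsp-25, flanked 2 members (0.487%; grid 0.113%). Ribosomal protein, histone and aminoacyl-tRNA synthetase genes flanked none, and on the grid they flanked 0.372%, 0.223% and 0.123% of positions.

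The clearest feature that the rule did not use was likeness to tRNAs. A tRNA, tRNA pseudogene, rRNA, snRNA or other RNA polymerase III gene aligned to the window within 250 bp of the summit in 91 members (22.1%; blastn, E-value up to 1e-05). On a grid with steps of 3000 bp, 66 of 10066 windows did so (0.656%). The members are thus away from the RNA genes named in the rule by position, and many are close to them in sequence. In 85 members the aligned gene was a tRNA gene or tRNA pseudogene. Their median signal was 320.0, and 28 reached 1000. The aligned segment had a median length of 69 bp and a median identity of 87.5% (range 74.6 to 98.7%). The summit lay inside the segment in 55 of the 85 and within 50 bp of it in 76.

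Y94H6A.t1 was the best match of 34 members, with signals of 57.4 to 4773 and a median of 1014.2. The strongest of them lay between ssp-31 and ZK1053.1, ranked 126 in replicate 1 and 198 in replicate 3. K10B2.t1 was the best match of 3 members with a median of 3425.5, and F53B1.t1 of 9 weak ones with a median of 76.0. Those matched to K10B2.t1 included the strongest member on V, at V 5667530 between C14C11.7 and pqn-13 (3425). The member between gfrl-1 and Y69A2AR.1 (IV 2665809; 4259) matched Y22D7AL.t1 over 48 bp at 81.2% identity.

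The genome held 68 copies of the Y94H6A.t1 sequence of at least 60 bp, itself included, and 53 of them had an IDR summit within 100 bp. In the space within the limits 33 of 45 copies had one, and in gene spans 19 of 21. The identity to Y94H6A.t1 had medians of 88.7% with a summit and 89.0% without, with overlapping ranges of 83.6 to 100% and 80.2 to 90.4%. Their surroundings were repeated to different extents. Uniqueness was measured over all 36-base words up to 250 bp away: a median of 35.5% was unique to its place around copies with a summit and 11.1% around copies without. Under 10% unique words, 1 of 8 copies had a summit. From 10 to under 50% it was 40 of 47, and at 50% or more 12 of 13. Reads from repeated sequence cannot be placed uniquely, and the part of this in the missing summits was not tested.

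**Figure D4:**
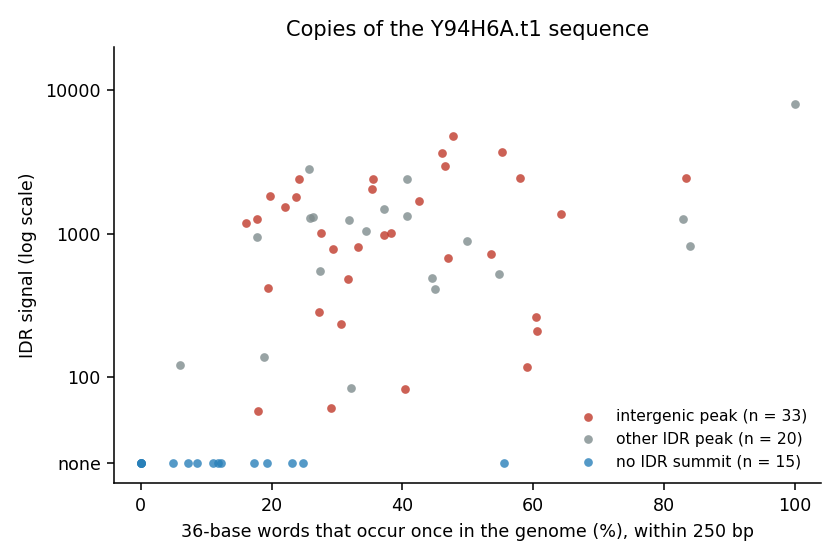
The 68 genome copies of the Y94H6A.t1 sequence by the percent of unique 36-base words around them (x) and the IDR signal of a summit within 100 bp (y, log scale; copies without a summit at the bottom). All but 1 of the 15 copies without a summit lie under 25% on the x axis, and copies with one reach from 6.0 to 100%.

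Members also resembled each other. By alignments of at least 100 bp, 152 members (37.0%) fell into 33 groups, 19 of them with at least 3 members. No such share is given for grid windows, so the 37.0% has no background here. Grouped members had a median signal of 264.3 and the others 86.38. The largest group, with 35 members, held the 34 matched to Y94H6A.t1, and its aligned stretches had a median length of 395 bp, longer than the tRNA-like segment. The next, with 12 members and a median signal of 87.18, held 11 with tRNA likeness. Groups of 8 members led by the one between ifd-1 and rcs-1 (signal 1714) and by the one between spat-3 and pqn-65 (signal 1378) had no tRNA likeness. Their median signals were 268.2 and 536.2. The B-box core or a variant was found in none of the former 8 and in 6 of the latter 8. Most genome copies of some groups, counted from 200 bp, had no IDR summit. In the largest group 41 of 54 copies had one, and in the next 16 of 166. For the groups led from ifd-1 and rcs-1 and from spat-3 and pqn-65 it was 9 of 41 and 9 of 46. The pair shown above between ceh-37, a homeobox gene, and kola-4 and between jmjd-3.1, a histone demethylase gene, and F18E9.8 formed a group with a weak member on X (106.1). Around the member beside ceh-37, 67.5% of 36-base words were unique, and around the one beside jmjd-3.1 76.2%.

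The B-box core lay within 250 bp of the summit in 83 members (20.2%; 95% Clopper-Pearson interval 16.4 to 24.4%) and in 3.2% of grid windows. In signal group 1 the share was 32% and in group 4 it was 15.5%. Among the 56 members of at least 1000 it was 41.1%. With the variants, chosen after seeing the data, 158 members (38.4%) and 14.0% of grid windows held it, and 76.8% of the 56 strongest did. Peaks in gene spans held the core in 14.8% and the core or a variant in 37.0%. An A-box core followed by a B-box core or variant 20 to 80 bp downstream on the same strand, also chosen after seeing the data, was found in 36 members (8.76%) and in 0.309% of grid windows; the share was 6.36% in gene span peaks. It was found in 21.4% of group 1 and in 2.91% of group 4. The A-box core and the variant GTTCAANNC both match Y94H6A.t1 itself. Of the 36 members, 29 aligned to a tRNA gene or tRNA pseudogene. Of the same 36, 19 belonged to the group of 35 that holds the members matched to Y94H6A.t1, and these counts overlap. The contrast with the grid is thus partly a count of that repeated sequence. A match describes the letters in the window and not the binding of a factor. The strongest members with the B-box core, after that between cysl-2 and dhs-8, lay between cdk-14 and zfr-1 (5900), between mltn-13 and F02E8.4 (3792), and between ckr-2 and dpy-1 (3634).

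**Figure D5:**
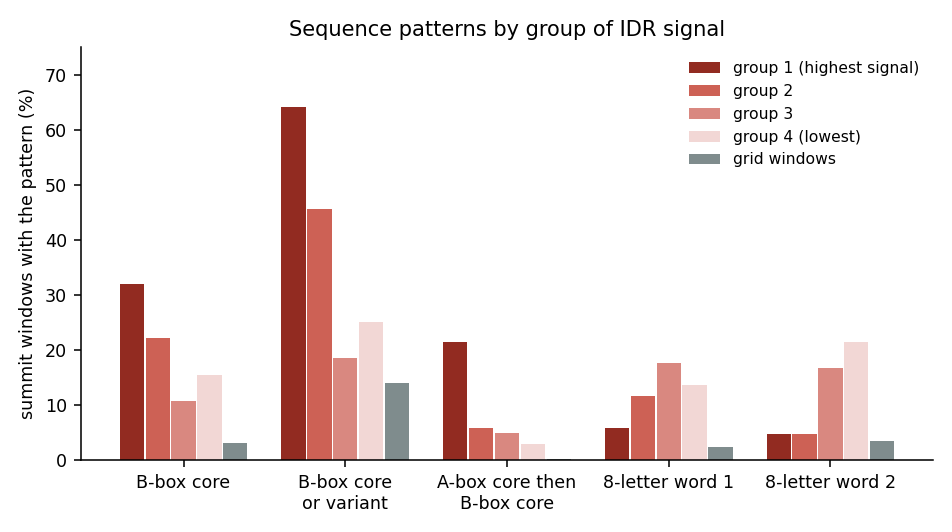
Percent of summit windows (250 bp to each side) with each pattern, by group of IDR signal from 1 (highest) to 4 (lowest), beside 30103 grid windows in the same space; word 1 is GACGCAGA and word 2 is AGAGAGAG, both searched on either strand. The B-box core or a variant is in 64.1% of group 1, 18.6% of group 3 and 25.2% of group 4, whereas word 2 is in 4.85% of group 1 and 21.4% of group 4.

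Other annotated genes, of classes the rule did not name, lay within 250 bp of 84 members (20.4%; 95% Clopper-Pearson interval 16.6 to 24.7%). The share of grid positions, 23.8%, lay inside that interval. By class, the members and the grid were unlike. Genes annotated as ncRNA were near 59 members (14.4%; grid 5.4%), whereas genes annotated as pseudogenes were near 14 (3.41%; 11.9%) and piRNA genes near 5 (1.22%; 6.3%). The median signal was 102.9 with such a gene and 106.1 without. Several strong members sat on short ncRNA genes. Besides F08G2.13 and F08G2.12, the summit lay 18 bp upstream of the 5′ end of K10H10.11 (80 bp long; member signal 6194), and inside M163.12 (78 bp; 2454), Y46E12A.11 (53 bp; 1994) and C18C4.17 (152 bp; 1830). The summit upstream of K10H10.11 also lay inside K10H10.14, a longer ncRNA gene of 284 bp on the same strand. The member at M163.12 also aligned to the snRNA gene M163.13 over 78 bp at 88.5% identity. T22B2.9 and T22B2.12, and K02D3.5 and K02D3.4, are annotated on opposite strands of the same place, so the strand of the RNA at these members (1156 and 1013) cannot be told.

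Altogether 85 members aligned to a tRNA gene or tRNA pseudogene, another 71 had another annotated gene within 250 bp, a further 68 aligned only to another member, and 187 (45.5%) had none of these. The median signals were 320.0, 99.52, 172.3 and 83.14 in that order. X held 23.5% of the tRNA-like members, close to its 22.3% of the space, and 31%, 41.2% and 38% of the other kinds. The 187 members with none of these included 8 of at least 1000, among them those between cdk-14 and zfr-1 and between aagr-1 and D2096.7. The word GACGCAGA, found after seeing the data, lay in 37 of the 187 (19.8%) and in 2 of the 85 tRNA-like members (2.35%). Over all members it was present in 50 (12.2%), with a median distance of 67 bp from the summit, and in 2.49% of grid windows. Promoter peaks held it at nearly the same share, 12.3%.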

How the data were processed

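Peaks of RPC-1 ChIP-seq from 2 samples were deposited by the authors as peak lists on the ce11 build. Per the file headers there is 1 list for each sample, 1 list called on the pooled samples and 1 IDR list. Column 7 of each list is the authors' deposited signal per peak, relative to a control. Its scale differs between lists, so signals were compared within a list only and replicates by rank. Neither an aligner nor a peak caller is named in the labels or headers used here. The control reads were not analysed here, and depth is unknown.

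Summits were placed on RefSeq genes of WBcel235, the same assembly. Background came from grid positions every 1000 bp (30103 positions) inside the position limits, and every 3000 bp for alignments. Windows ran 250 bp to each side of a summit. Alignments used blastn 2.17.0+ with E-values up to 1e-05, and member groups joined alignments of at least 100 bp. Copies of Y94H6A.t1 needed 60 bp. Motifs were searched exactly on both strands. Counts and motif searches were tested on simulated data. Peaks are not replicates of a condition and share chromosomes, sequence and libraries, so no p-value is given.

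The members and lists were chosen with earlier results of these data known. Regions named by rule were the 10 strongest members, the strongest on each chromosome, the 3 weakest, up to 10 strongest with a B-box core and up to 6 with alignments. Other regions, the sequence variants, the words and the shared runs were chosen after their values were seen. Alternatives changed the position limits, the peak list, the distances and the motif, or used 1 replicate alone through its 1860 highest peaks. No sequence from 1 of the chromosomes is printed.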

Additional observations from a re-analysis of the deposited data

How the results depend on the processing

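Of 46 alternatives, 31 left a count within 1.5 times, a share within the 95% Clopper-Pearson interval of its reported value, or the median signal within a 95% interval from its order statistics. These intervals cover counting error over peaks only. The rule found 133 members in the upper 930 peaks of the IDR list and 6598 in the whole pooled list, as those lists are shorter and longer. Leaving out replicate 1 or 3 gave 383 and 412 members. In the upper 930 peaks the share on X was 41.4%, the share with a B-box core 30.1% and the share with summits in both replicate lists 97.7%. The X share without 1 replicate ran from 31.1 to 33.9%. The share with a B-box core was 15.8% within 100 bp of the summit, 27.5% for the full B-box with at most 1 mismatch, 38.4% with the variants and 29% among members in the top 1860 of both replicates. The last 2 were chosen after seeing the data. Without 1 replicate it ran from 19.2 to 21.9%. The share in both replicate lists was 79.6% at 100 bp and 92.5% at 500 bp. Another annotated gene held the summit in 13.9%, lay within 500 bp in 27.5%, and within 250 bp in 18 to 21.8% without 1 replicate. Alignment to an RNA polymerase III gene was found in 17.3% at an E-value of 1e-10, in 35.3% of members in the top 1860 of both replicates, chosen after seeing the data, and in 20.6 to 23.2% without 1 replicate. The nearest gene end was a 3′ end for 50.1% of members (grid 45.4%), 50.4% in the upper 930 peaks and 49.3% by whole intervals, both added after seeing the data. No paired analysis was possible because there was 1 group. The difference between the 2 samples cannot be told apart from that between the shearing devices.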

Other observations

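Composition set the members slightly apart from the space around them. The GC content of the summit windows had a median of 38.1% in members and 33.5% on the grid. Lower-case (repeat-masked) bases made up a median of 31.7% against 36.7%. In signal group 1, the highest, the median masked share was 41.9%. The median share of unique 36-base words was 88.4% there and 100% in groups 2 to 4. The word AGAGAGAG lay in 49 members (11.9%; grid 3.53%), in 4.85% of group 1 and 21.4% of group 4, in 5.67% of promoter peaks and in 9.7% of peaks in gene spans.

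The 6 runs shared by the windows at F08G2.13 and F08G2.12 did not recur as a set in any other member. At least 2 of the 6 were found in 4 members, in 3 of the 1429 other nuclear IDR peaks and in 10 of 30103 grid windows. Besides the pair itself, the members were those at the ncRNA genes C18C4.17 (V 5576258, signal 1830) and W01D2.9 (II 14804848, signal 136.9), each with 2 runs. The latter is a peak without a summit in replicate 1. The runs were chosen from the pair, so its own count carries no weight.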
